A study of Homo sapiens with 4 samples.

Results

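T-47D is an established human breast carcinoma line that carries the estrogen receptor, and the cells described here were divided by how much mRNA they held of 2 genes of dividing cells. These genes are TOP2A, a topoisomerase that untangles replicated DNA, and MKI67, which encodes the proliferation marker Ki-67. A cell was taken as dividing when its unique molecular identifiers (UMIs, each marking 1 captured transcript) of both genes summed to at least 5, and as non-dividing when they summed to 0. Of 4626 T-47D cells with a time point, 427 were dividing, 3020 were non-dividing and 1179 lay between the limits.

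Single-cell RNA sequencing was run on T-47D and on Ishikawa, an endometrial adenocarcinoma line. Cells of both lines were kept without hormone for 5 days and were then given 17β-estradiol (E2), the main natural estrogen, at 10 nM for 2, 4 or 8 h, with vehicle alone as 0 h. Each time point of a line was 1 culture, tagged with a membrane-anchored DNA barcode (MULTI-seq), and the 4 cultures of a line were pooled into 1 gene expression library. Dividing and non-dividing cells are set side by side within the same culture and library. No p-value is given, since the classes were chosen on mRNA of the same cells that are compared and each time of E2 was 1 culture. Every interval covers counting error only, not differences between cultures.

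A cell that divides copies its genome in S phase, prepares in G2 and separates the copies in mitosis. Genes for the replication machinery are switched on before and during S phase by E2F transcription factors, whereas genes for the mitotic machinery are switched on later, in G2, through promoter elements called CHR and CCAAT boxes. TOP2A and MKI67 mRNA both climb through S phase and peak in G2 and mitosis, so a sum of their UMIs marks cells that have passed G1. In breast cancer cells that carry the receptor, estrogen drives the passage from G1 into S phase, in part through cyclin D1.

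Summed UMIs of a class and time point made a pool, and a gene's level is its UMIs per 1000000 UMIs of that pool (CPM). The dividing pools held 3278017, 2687681, 3192533 and 1973908 UMIs at 0, 2, 4 and 8 h, and the non-dividing pools 7184621 (8 h) to 21776661 (0 h). Dividing cells were also larger libraries, with median UMIs of 25711 to 27526 against 20155 to 21794, and with 5029 to 5181 genes detected against 4244 to 4453. Mitochondrial transcripts took a median of 8.94% to 9.29% of UMIs in dividing cells and 10.1% to 10.6% in non-dividing cells. Markers of fibroblast, immune, endothelial and basal cells (18 genes) stayed under the 10 CPM minimum in every case, summed to 17.2 to 33.2 CPM over the 8 pools, and PDGFRB, PECAM1, CDH5 and KRT5 had no UMI in any of the 4626 cells. The T-47D and Ishikawa matrices shared 80 barcodes, 14 of them among the 3447 dividing and non-dividing cells.

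The genes of the rule are described first, as they chose the cells. The median sum of the 427 dividing cells was 24 UMIs, and the highest was 189. TOP2A gave 72.2% of these UMIs, and 411 of the 427 cells held both genes. The limits cut a gradient rather than a gap. The 28 cells with a sum of 5, just inside the limit, held CCNB1 at 94.6 CPM and RRM2 at 63.5 CPM, and the 32 cells with a sum of 4, just outside it, held them at 74.0 and 22.1 CPM. At the other limit, CCNB1 was at 29.2 CPM in cells with a sum of 0 and at 32.5 CPM in the 858 cells with a sum of 1.

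The share of dividing cells was 8.46% with vehicle (129 of 1525 cells, 95% Clopper-Pearson interval 7.11% to 9.97%). It was 8.62% after 2 h of E2 (104 of 1207 cells, 7.09% to 10.3%), 9.02% after 4 h (121 of 1341 cells, 7.54% to 10.7%) and 13.2% after 8 h (73 of 553 cells, 10.5% to 16.3%). The intervals at 0, 2 and 4 h overlapped, and that at 8 h lay above those at 0 and 2 h and overlapped that at 4 h. Non-dividing cells made up 67.4%, 68.3%, 63.0% and 58.4% of the 4 cultures. When each cell was thinned to 14495 UMIs and the classes were called again, the dividing share was 7.89%, 8.04%, 7.39% and 11.2%, and the intervals at 0 h (6.497% to 9.47%) and 8 h (8.60% to 14.2%) then overlapped. This left out 194, 125, 110 and 34 shallower cells.

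The difference at 8 h lay mostly in cells with few of the rule's UMIs. Cells with a sum of 5 to 19 made up 3.34%, 3.31%, 3.80% and 7.05% of the 4 cultures, with intervals of 2.50% to 4.37% at 0 h and 5.06% to 9.52% at 8 h. Cells with a sum of 20 or more made up 5.11%, 5.30%, 5.22% and 6.15%, with intervals of 4.06% to 6.34% at 0 h and 4.29% to 8.49% at 8 h. The former interval at 8 h lay clear of that at 0 h, and the latter overlapped it. Cells of 20 or more were 60.5% of the dividing cells at 0 h and 46.6% at 8 h, and the median sum was 26, 27, 22 and 17 UMIs at the 4 times.

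**Figure D1:**
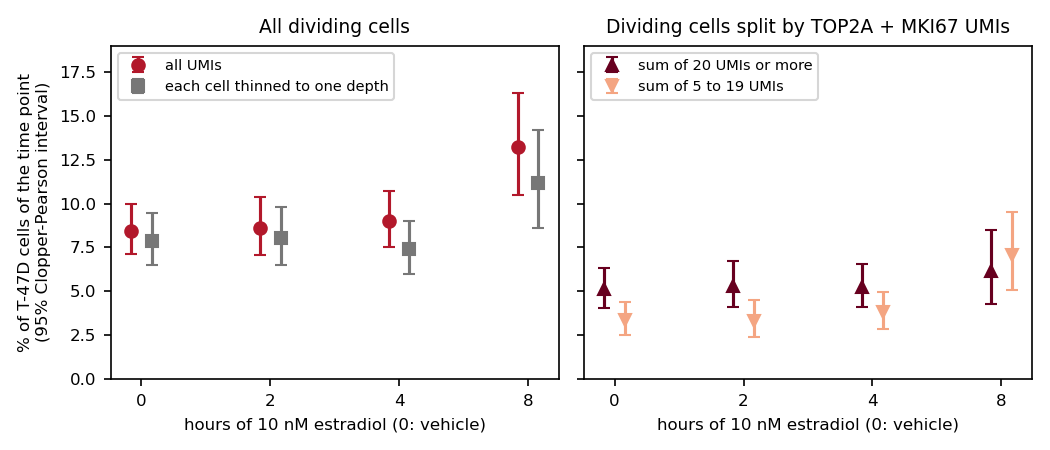
Share of T-47D cells (%) that were dividing over the 4 time points (hours of 10 nM E2), with 95% Clopper-Pearson intervals (counting error only). Left, all UMIs (circles) and each cell thinned to 14495 UMIs (squares). Right, cells with a summed TOP2A and MKI67 count of 20 or more (triangles pointing up) and of 5 to 19 (pointing down). The 5 to 19 share at 8 h, 7.05%, stands above its other values of 3.31% to 3.80%.

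The called cells were bounded at 39992 UMIs and 5999 genes, and dividing cells were more frequent near that bound. Of called cells with over 5500 genes, 32.4% were dividing (121 of 374), against 7.197% of the rest (306 of 4252). The share of dividing cells among all T-47D cells is therefore a share within these bounds.

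Over 7430 genes with at least 10 CPM in the pool of all 4626 cells, leaving out the rule's own genes, 908 (12.2%), 926 (12.5%), 861 (11.6%) and 869 (11.7%) were at least 1.5-fold higher in dividing cells at 0, 2, 4 and 8 h. Lower by as much were 402 (5.41%), 542 (7.29%), 420 (5.65%) and 538 (7.24%). Past the fold at all 4 time points were 578 higher (7.78%) and 123 lower (1.66%), and only 5 genes passed it in both directions at different times. Log2 folds are of CPM + 1. The median over all genes was -0.00413 to 0.0135 at the 4 times. The same cells that carried the rule's genes carried these, so the counts are descriptions of 2 classes chosen on their cell cycle mRNA.

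CEP55, which helps to sever the bridge between daughter cells, was at 205, 237, 208 and 179.8 CPM in dividing cells at 0, 2, 4 and 8 h, and at 1.47, 2.45, 2.12 and 1.81 CPM in non-dividing cells. The ratio was 139.7 (95% interval 98.02 to 206) at 0 h and 99.4 (95% interval 57.4 to 189) at 8 h. Its smallest log2 fold over the 4 time points, 6.01, was the highest of all genes tested. HMMR, which binds the spindle, was at 418, 388, 389.97 and 353 CPM in dividing cells at the 4 time points, against 5.51, 5.91, 6.53 and 5.15 CPM in non-dividing cells. NUSAP1, a microtubule bundler of the spindle, was at 1016, 942, 910.2 and 693 CPM in dividing cells at the 4 time points, against 12.8, 11.1, 10.4 and 12.5 CPM in non-dividing cells. BIRC5 (survivin), a member of the complex that corrects chromosome attachment, was at 402, 399.6, 352 and 284 CPM in dividing cells at the 4 time points, against 5.05, 5.23, 4.75 and 5.15 CPM in non-dividing cells. The other genes among the 15 with the highest smallest fold over the 4 times were HIST1H1D, PBK, SPC25, ESCO2, DLGAP5, NCAPG, UBE2C, MYBL2, KNL1, CDK1 and RRM2, and their ratios in a single time point ran from 38.9 (CDK1) to 180.2 (ESCO2). ESCO2 was at 1.13 CPM in non-dividing cells of all time points pooled, so its ratio rests on a level near the floor. That no pool overlapped between classes in any of the 15 was largely set by choosing them on their fold at every time point.

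Mitotic kinases, cyclins and exit factors formed a list of 37 genes. Over the list, whatever the level, 36 were at least 1.5-fold higher at all 4 time points with a ratio interval above 1, a call that 4.74% of all genes with a UMI in either class met (0.663% for lower). The exception was FZR1, an activator of the anaphase-promoting complex used after mitosis. Of the 37, 22 passed the 10 CPM minimum, which a gene could reach through dividing cells alone. CCNB1, cyclin B1, the partner of the mitotic kinase CDK1, was at 519, 461, 421 and 310.04 CPM in dividing cells at 0, 2, 4 and 8 h, and at 32.7, 26.1, 29.3 and 25.9 CPM in non-dividing cells. The ratio was 15.9 (95% interval 14.5 to 17.3) at 0 h and 11.98 (95% interval 10.1 to 14.2) at 8 h. CDC20, which targets cyclin B for destruction at anaphase, was at 149, 126, 102 and 78.5 CPM in dividing cells at the 4 time points, against 2.34, 2.05, 3.46 and 2.78 CPM in non-dividing cells. PLK1, a kinase of mitotic entry and spindle assembly, was at 86.6, 78.1, 85.2 and 66.4 CPM in dividing cells at the 4 time points, against 0.689, 1.42, 1.17 and 1.11 CPM in non-dividing cells. CENPF, a kinetochore protein, was at 1723, 1460, 1558 and 1317 CPM in dividing cells at the 4 time points, against 58.4, 38.96, 44.7 and 55.8 CPM in non-dividing cells.

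Shares of single cells showed the same order. Thinned to 14495 UMIs, 77.3% of dividing cells held a CCNB1 UMI (310 of 401) against 32.1% of non-dividing cells (855 of 2665). For CDC20 the shares were 51.1% and 3.60%, and for PLK1 44.4% and 1.76%. Without thinning they were 86.9% and 41.9% for CCNB1, 65.6% and 5.03% for CDC20, and 54.6% and 2.28% for PLK1. Free RNA gives a UMI in cells that do not express a gene, and as a mixture of 1 line no cell type here should lack these genes, so the non-dividing shares include any such UMIs.

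The related lists gave like counts. All 40 kinesin, spindle and cytokinesis genes, 29 of 32 centromere and kinetochore genes and 29 of 30 genes of chromosome and nuclear structure were higher at all 4 times with the interval above 1. The share of all genes with a UMI in either class was 4.74%. The median log2 fold of members past the minimum was 4.33 to 5.003 for mitotic kinases (22 genes), 3.49 to 3.85 for kinesins (27), 3.70 to 3.99 for centromere genes (26) and 1.82 to 2.25 for chromosome genes (25). These medians are of members that passed, which dividing cells alone could bring about, and do not rank the lists. The lowest kinesin, centromere and chromosome members past the minimum were JPT1, PMF1 and CTCF. JPT1, a microtubule-associated protein, was at 1213, 1143, 1035 and 905 CPM in dividing cells at the 4 time points, against 608, 634, 619 and 594 CPM in non-dividing cells. PMF1, a kinetochore gene, was 1.20 to 1.48-fold higher, and CTCF, which organizes chromatin loops, 1.36 to 1.61-fold.

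Of 50 replication genes 48 were at least 1.5-fold higher at all 4 times with the interval above 1, the exceptions being ORC1 and GINS3, both under the minimum. That call was met by 4.74% of all genes with a UMI in either class. The median log2 fold of the 35 past the minimum was 2.61, 2.81, 2.56 and 2.61. PCNA, the clamp that holds the polymerases on DNA, was at 232, 269, 249 and 240.1 CPM in dividing cells at 0, 2, 4 and 8 h, and at 33.2, 30.5, 30.7 and 32.7 CPM in non-dividing cells. Its ratio was 7.002 (95% interval 6.32 to 7.76) at 0 h and 8.84 (95% interval 7.89 to 9.90) at 2 h. MCM2, a subunit of the replicative helicase, was at 29.6, 33.9, 28.2 and 43.6 CPM in dividing cells at the 4 time points, against 3.35, 3.07, 3.24 and 3.76 CPM in non-dividing cells. MCM10, which helps to start the helicase, had the highest median log2 fold of the members past the minimum, 5.17, next to 5.16 for PCLAF, which binds PCNA. MCM10 was at 73.5, 87.1, 88.3 and 107 CPM in dividing cells at the 4 time points, against 1.56, 1.14, 1.67 and 1.81 CPM in non-dividing cells. POLD2, a subunit of DNA polymerase delta, had the lowest, at ratios of 1.52 to 1.75.

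Nucleotide synthesis genes differed from one another. RRM2, the regulated subunit of ribonucleotide reductase, was at 226, 268, 215 and 198 CPM in dividing cells at 0, 2, 4 and 8 h, and at 3.54, 3.41, 3.46 and 2.78 CPM in non-dividing cells. TYMS, which makes thymidylate, was at 165, 185, 184 and 171 CPM in dividing cells at the 4 time points, against 3.77, 3.70, 4.86 and 4.18 CPM in non-dividing cells. Of the 22 members 11 were higher at all 4 times with the interval above 1, and none was lower. Of all genes with a UMI in either class, 4.74% were higher and 0.663% lower by that call. None lower is near that share. PRPS1, which makes the ribose precursor of all nucleotides, had ratios of 0.754 to 0.977. Of 30 repair and checkpoint genes 26 were higher at all 4 times by the same call. BRCA1, which repairs double strand breaks, had the highest median log2 fold of the members past the minimum. It was at 127, 149, 128 and 141 CPM in dividing cells at the 4 time points, against 5.51, 5.69, 4.75 and 6.68 CPM in non-dividing cells. PARP1, a sensor of strand breaks, was at ratios of 1.31 to 1.55.

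The promoters of these lists carried different short motifs. Promoter windows of RefSeq (GRCh38.p14, 250 bases before to 50 after a gene's start) were found by symbol for 5966 of the 7430 genes. Both strands were searched for the CHR as the letters TTTGAA, for the CCAAT box as the letters in its name, and for an E2F site as the letters GCGGGAA. Different motifs can share at most 1 end letter. Among list members past the minimum, the CHR letters stood in 61.1% of windows of the mitotic list (11 of 18 matched), in 72.0% of kinesin windows (18 of 25) and in 50% of centromere windows (10 of 20). It stood in none of 29 replication windows, in 9.07% of the genes tested and in 15.4% of all 27305 windows. The E2F letters stood in 48.3% of replication windows (14 of 29), in none of the 18 mitotic windows, in 11.1% of the genes tested and in 6.56% of all windows. The CCAAT box was common in both, at 77.8% of mitotic and 69.0% of replication windows against 38.3% of the genes tested. Over the 578 genes higher at all 4 times, 466 matched, and 20.2% held the CHR letters, 50.4% a CCAAT box and 21.7% the E2F letters.

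The promoters of 3 mitotic genes and 2 replication genes are shown because they hold the letters. Of 13 windows of 150 bases read, 4 of mitotic and 9 of replication genes, BUB1 held no CHR letters, and MCM2, MCM6 and FEN1 held no E2F letters. Each printed window is the 150 bases before the start in RefSeq, 5′ to 3′ on the gene's strand, in lower case, with the letters of the 3 motifs in capitals on whichever strand they lie (a CCAAT box on the other strand reads as ATTGG). They lie at chr15:59104996-59105145, plus strand (CCNB2, cyclin B2), chr1:43358831-43358980, plus strand (CDC20), chr16:23678739-23678888, plus strand (PLK1), chr6:52284743-52284892, minus strand (MCM3, a helicase subunit) and chr20:5126623-5126772, minus strand (PCNA).
CCNB2: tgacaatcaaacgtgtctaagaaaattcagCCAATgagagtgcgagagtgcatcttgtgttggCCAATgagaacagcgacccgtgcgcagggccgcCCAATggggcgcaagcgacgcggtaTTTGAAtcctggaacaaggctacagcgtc
CDC20: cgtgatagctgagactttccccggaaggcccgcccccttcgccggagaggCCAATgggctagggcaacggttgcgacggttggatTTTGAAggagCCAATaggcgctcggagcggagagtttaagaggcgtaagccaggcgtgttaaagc
PLK1: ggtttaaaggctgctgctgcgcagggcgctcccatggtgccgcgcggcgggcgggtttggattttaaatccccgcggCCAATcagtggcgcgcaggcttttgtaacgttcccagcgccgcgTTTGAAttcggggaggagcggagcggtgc
MCM3: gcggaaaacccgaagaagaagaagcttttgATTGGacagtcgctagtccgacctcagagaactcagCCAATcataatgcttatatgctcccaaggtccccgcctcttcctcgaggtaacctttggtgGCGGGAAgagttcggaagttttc
PCNA: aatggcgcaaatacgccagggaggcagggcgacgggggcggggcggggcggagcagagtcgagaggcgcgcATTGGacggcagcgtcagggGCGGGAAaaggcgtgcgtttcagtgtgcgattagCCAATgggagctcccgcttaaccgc
In CCNB2 the CHR began 29 bases before the start, with CCAAT boxes at 54, 87 and 120 bases. PLK1 had its CHR at the same 29 bases and a CCAAT box at 73 bases, and CDC20 had a CHR at 65 bases between boxes at 55 and 100 bases. MCM3 and PCNA held no CHR letters, and their E2F letters began 23 and 59 bases before the start. These letters are matches and not measured binding.

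Histone genes of the clusters went both ways. Replication-dependent histone mRNAs mostly lack a poly(A) tail, which the capture used here needs, so the levels are of what was captured. HIST1H4C, a histone H4 gene, was at 2256, 2473, 2386 and 2103 CPM in dividing cells at 0, 2, 4 and 8 h, and at 56.9, 57.7, 51.3 and 57.9 CPM in non-dividing cells, with ratios of 36.3 to 46.6. HIST1H1D, a linker histone, was at 184, 217, 201 and 183 CPM in dividing cells at the 4 time points, against 1.56, 2.27, 1.34 and 1.95 CPM in non-dividing cells. HIST1H1E and HIST2H2AC were also higher at all 4 times, with log2 folds of 3.99, 3.79, 4.22 and 3.69 and 3.56, 3.59, 4.16 and 3.30. HIST1H2AC, a histone H2A gene, was lower, at 61.01, 50.2, 51.1 and 56.7 CPM in dividing cells at 0, 2, 4 and 8 h, and at 147, 143, 144 and 142 CPM in non-dividing cells. HIST1H2BD, HIST1H4H and HIST2H2BE were lower at all 4 times too, with log2 folds of -1.14, -1.46, -1.16 and -1.02, -1.16, -1.18, -0.67 and -0.92 and -0.81, -1.05, -1.33 and -0.99. Over all 70 genes of the clusters, 22 were higher and 4 lower at all 4 times with the interval off 1, and 12 had no UMI in either class. Of all genes with a UMI in either class, 4.74% were higher and 0.663% lower by that call. Cluster genes are near copies of each other, so how reads were shared among them is uncertain.

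**Figure D2:**
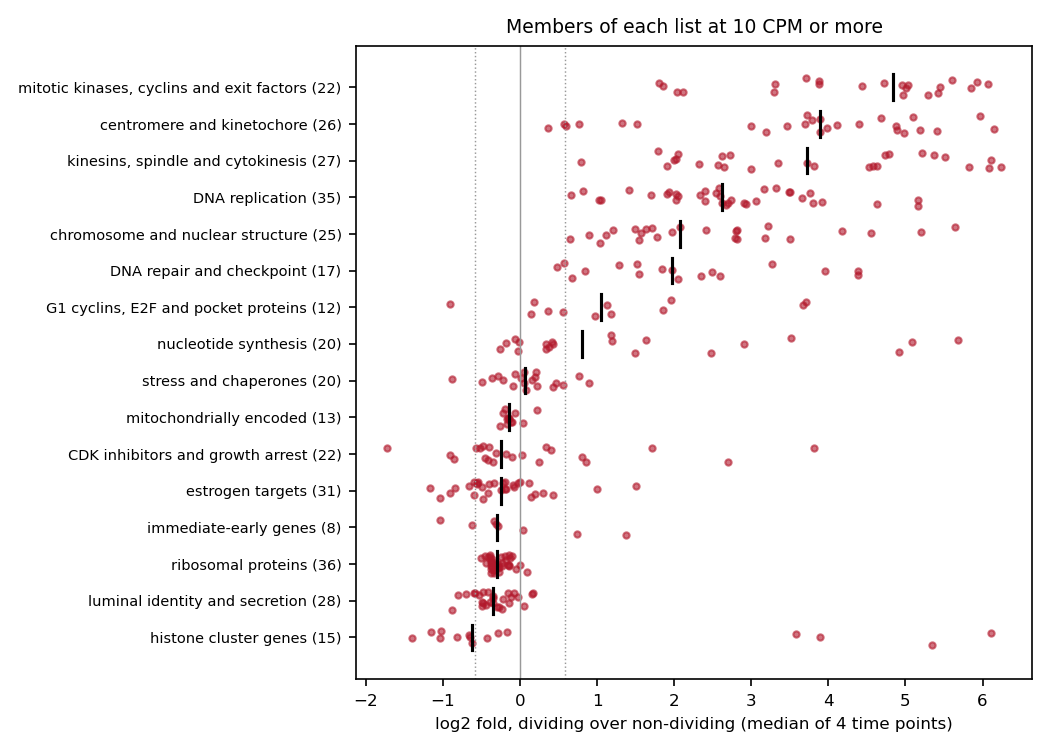
Log2 fold of dividing over non-dividing T-47D cells for each list member at 10 CPM or more (1 dot per gene, the median of its 4 time points), with the number of such members in brackets, the list's median as a bar and 1.5-fold as dotted lines. Mitotic, centromere, kinesin and replication genes lie to the right, ribosomal and luminal genes just left of 0, and the histone genes split into 4 at the right and the rest left of 0.

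Among the regulators of G1, CCNE2, E2F1 and RB1 were higher and cyclin D1 was lower at all 4 times. E2F3, E2F4, RBL2 and CDK4, all past the minimum, were not called in either direction at all 4 times. CCNE2, cyclin E2, which brings cells into S phase, was at 73.8, 80.7, 70.5 and 75.5 CPM in dividing cells at 0, 2, 4 and 8 h, and at 4.64, 4.49, 4.58 and 6.12 CPM in non-dividing cells. E2F1, which activates replication genes, was at 79.01, 89.7, 80.5 and 109.9 CPM in dividing cells at the 4 time points, against 5.88, 5.80, 5.69 and 7.10 CPM in non-dividing cells. RB1, the pocket protein that holds E2F in check, was at 57.96, 62.5, 68.6 and 69.9 CPM in dividing cells at the 4 time points, against 30.6, 32.5, 29.8 and 33.96 CPM in non-dividing cells. CCND1, cyclin D1, was at 39.4, 81.9, 75.2 and 87.1 CPM in dividing cells at 0, 2, 4 and 8 h, and at 110.3, 162, 134 and 150.3 CPM in non-dividing cells. Its ratios were 0.357 (95% interval 0.297 to 0.426) at 0 h and 0.580 (95% interval 0.491 to 0.681) at 8 h. Of the 22 genes of the list 15 were higher at all 4 times with the interval off 1. The share of all genes with a UMI in either class was 4.74%, and 0.663% for lower. CCND1 alone was lower by that call. Its call at all 4 times was lost without scaling, with thinned cells and with an upper limit of 31641 UMIs, where its median log2 fold was -0.61, -0.92 and -0.87 against -0.90.

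Inhibitors of the cyclin-dependent kinases and growth arrest genes, kept as 1 list, went both ways in dividing cells. The median log2 fold of the 22 members past the minimum was -0.23, -0.16, -0.20 and -0.39 at 0, 2, 4 and 8 h. CDKN1A (p21), a brake on the cell cycle, was at 29.6, 32.7, 29.8 and 23.3 CPM in dividing cells at 0, 2, 4 and 8 h, and at 8.45, 8.87, 8.26 and 7.93 CPM in non-dividing cells, with ratios of 2.94 to 3.69. CDKN2C (p18), an inhibitor of the cyclin D kinases, was at 68.03, 60.3, 71.4 and 52.2 CPM in dividing cells at the 4 time points, against 3.81, 3.47, 3.24 and 5.01 CPM in non-dividing cells. CDKN2D (p19), of the same family, was at 43.01, 40.2, 48.9 and 41.03 CPM in dividing cells at the 4 time points, against 5.65, 7.17, 5.30 and 5.57 CPM in non-dividing cells. CDKN1B (p27) was 1.73 to 1.91-fold higher at 0, 2 and 4 h and at 1.00 (95% interval 0.615 to 1.57) at 8 h. CDKN2B (p15) went the other way over all time points pooled, at 25.6 CPM in cells with a sum of 0. It was at 7.93, 10.8 and 17.3 CPM in cells with sums of 5 to 9, 10 to 19, and 20 or more. DDIT4, which restrains growth through mTOR, and MXD4, a partner of MAX that opposes MYC, were lower at all 4 times, with DDIT4 at 15.3, 11.2, 7.83 and 8.11 CPM in dividing cells at the 4 time points, against 55.4, 37.2, 31.99 and 23.7 CPM in non-dividing cells. Of the 31 genes measured, 4 were higher and 2 lower at all 4 times with the interval off 1, against 4.74% and 0.663% of all genes with a UMI in either class.

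The 15 genes with the lowest largest fold were of mixed kind. SNCG, gamma-synuclein, a gene long known from breast carcinoma, was at 100.4, 88.2, 84.6 and 79.5 CPM in dividing cells at 0, 2, 4 and 8 h, and at 289, 322, 312 and 245 CPM in non-dividing cells. ANXA1, annexin A1, a membrane-binding protein, was at 10.4, 8.93, 12.2 and 10.1 CPM in dividing cells at the 4 time points, against 35.4, 44.02, 38.1 and 40.9 CPM in non-dividing cells. PRCP, a lysosomal peptidase, was at 72.00, 68.8, 68.9 and 60.8 CPM in dividing cells at the 4 time points, against 169, 164, 145 and 127 CPM in non-dividing cells. MTERF2, a mitochondrial transcription factor, was at 34.5, 39.4, 34.5 and 29.9 CPM in dividing cells at the 4 time points, against 83.4, 83.03, 74.5 and 71.4 CPM in non-dividing cells. That no pool overlapped between classes for these 4 genes was largely set by choosing them on their fold at every time point. The others were AC116407.1, DDIT4, SRARP, AP000844.2, HIST1H2AC, SPRY1, AL353622.1, HIST1H2BD, SULF2, LMTK3 and KRT86, of which AP000844.2, SPRY1, SULF2 and KRT86 stayed under 20 CPM in every pool.

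Luminal identity was lower by little. Keratin 18 (KRT18) was at 2415, 3451, 3668 and 3462 CPM in dividing cells at 0, 2, 4 and 8 h, and at 3245, 4627, 4887 and 4404 CPM in non-dividing cells, and keratin 19 (KRT19) was at 3263, 4846, 4857 and 5162 CPM in dividing cells at the 4 time points, against 4951, 7169, 7495 and 7178 CPM in non-dividing cells. The median log2 fold of the 28 luminal genes past the minimum was -0.33, -0.42, -0.36 and -0.37. SPDEF and ELF3, epithelial transcription factors, and ERBB2, the HER2 receptor, were lower at all 4 times, with ERBB2 at 52.8, 46.5, 34.5 and 25.8 CPM in dividing cells at the 4 time points, against 89.3, 84.1, 66.2 and 53.6 CPM in non-dividing cells. They were 3 of the 28 luminal genes past the minimum, against 1.66% of the genes tested. With thinned cells 1 of these 3 stayed lower at all 4 times, and without scaling 0. EPCAM, an epithelial adhesion molecule, was at ratios of 1.11 to 1.28. The 36 ribosomal protein genes had medians of -0.35, -0.30, -0.30 and -0.21, none passing the fold at all 4 times, and the 13 mitochondrial transcripts -0.17, -0.14, -0.10 and -0.14. These shares are of the pool, and with mean UMIs per cell in place of CPM the median gene was 0.26 to 0.30 higher in dividing cells on the log2 scale. On that scale 97.7% of the genes past the fold at all 4 times were higher, against 82.5% by CPM, and 26 rather than 123 were lower.

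Stress and immediate-early genes differed in single members. HSP90AA1, a chaperone, was at 4704, 4729, 4314 and 4665 CPM in dividing cells at 0, 2, 4 and 8 h, and at 2495, 2404, 2445 and 2554 CPM in non-dividing cells, and of 24 stress genes 1 was higher at all 4 times, which is near the 4.74% of all genes with a UMI in either class. IER5 was 1.60 to 3.63-fold higher and IER3, an early response gene, 0.417 to 0.589 of the non-dividing level. The median of the 20 stress genes past the minimum was 0.04 to 0.19.

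Across bins of the rule's UMIs the lists differed in the bin where they were highest. The bins were sums of 0, 1, 2, 3 to 4, 5 to 9, 10 to 19, and 20 or more, with 3020, 858, 216, 105, 95, 86 and 246 cells over all time points. Median UMIs per cell were 20337 at 0 and 27947 at 20 or more. CCNB1 stood at 29.2, 32.5, 47.6, 67.9, 137, 229 and 613 CPM. CCNE2 stood at 4.75, 8.12, 13.5, 46.8, 72.2, 102 and 66.8 CPM, and E2F1 at 5.94, 10.7, 25.03, 73.8, 105, 137 and 65.1 CPM. Both were highest at 10 to 19 and lower at 20 or more, as were CDC6, which loads the helicase (109 then 51.7 CPM), and MCM5, a helicase subunit (70.97 then 28.4 CPM). PCNA reached 211 CPM at 5 to 9 and 259 CPM at 20 or more.

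HIST1H4C was highest in the last bin, at 55.6, 60.1, 81.7, 158, 335, 1084 and 3407 CPM over the 7 bins. CDKN1A was flat to a sum of 4, at 7.94 to 8.74 CPM, and stood at 12.8, 23.1 and 37.00 CPM above it. CCND1 was at 135 to 150.4 CPM up to a sum of 4 and at 109.7, 93.1 and 46.02 CPM beyond. PGR, the progesterone receptor, stood at 233, 265, 312, 266, 227, 194 and 124 CPM over the bins. The bins held unequal mixes of time points, with vehicle cells making up 1028 of the 3020 cells at 0, 49 of the 216 at 2 and 78 of the 246 at 20 or more, and PGR was higher after E2. The summed CPM of the luminal list was 22261 at 0, 23491 at 2 and 14834 at 20 or more, and that of the ribosomal list 106607 and 83777 at the ends.

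**Figure D3:**
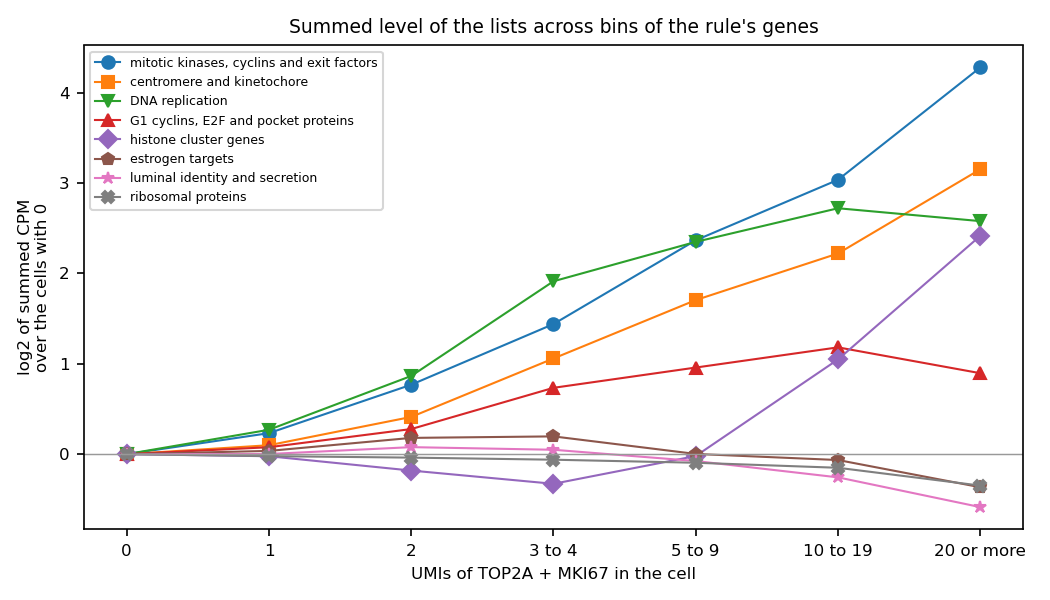
Log2 of the summed CPM of 8 lists over that of cells with a sum of 0, for 7 bins of the summed TOP2A and MKI67 UMIs of a cell, all time points pooled. The mitotic list is highest in the last bin, the replication and G1 lists are highest at 10 to 19, the histone list is under 0 from 1 to 9 UMIs and above 0 beyond, and the luminal list is under 0 from 5 UMIs on.

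At 8 h the dividing pool held a lower share of mitotic mRNA than at 0 h. The summed level of the mitotic list in dividing cells was 7587, 6940, 6691 and 5569 CPM at 0, 2, 4 and 8 h, and 479, 463, 483 and 498 CPM in non-dividing cells. The median log2 change of its 22 members at 8 h over vehicle was -0.48 in dividing cells, with 7 members lower by 1.5-fold or more and none higher, and 0.05 in non-dividing cells. All genes tested gave 291 lower (3.92%) and 251 higher (3.38%) at 8 h in dividing cells. The replication list stood at 5055, 5556, 5208 and 5461 CPM in dividing cells, and at 873, 864, 924 and 962 CPM in non-dividing cells, where its median change at 8 h was 0.20.

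The summed mitotic level fell with time in cells with 5 to 19 of the rule's UMIs, which were also a larger part of the pool at 8 h. In cells with 20 or more this level was lower at 8 h than with vehicle, but it was lowest at 2 h. The summed mitotic level of cells with 5 to 19 was 4000, 3919, 2560 and 2205 CPM over the 4 times, while cells with 20 or more held 9861, 8601, 9458 and 8864 CPM. CCNB1 in the former was at 278, 252, 129 and 60.4 CPM and in the latter at 672, 576, 617 and 555 CPM. E2F1 in the former was at 112, 116, 106 and 156 CPM, and CDC6 at 97.5, 90.2, 84.3 and 127 CPM. The former group at 8 h had less CCNB1, and had E2F1 and CDC6 at their highest of the 4 times. MCM5 in it was also highest at 8 h, at 78.8 CPM. PCNA, RRM2 and TYMS in it were highest at 2 h, at 255, 170 and 146 CPM against 231, 112 and 132 CPM at 8 h. The group with 5 to 19 held 51, 40, 51 and 39 cells.

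**Figure D4:**
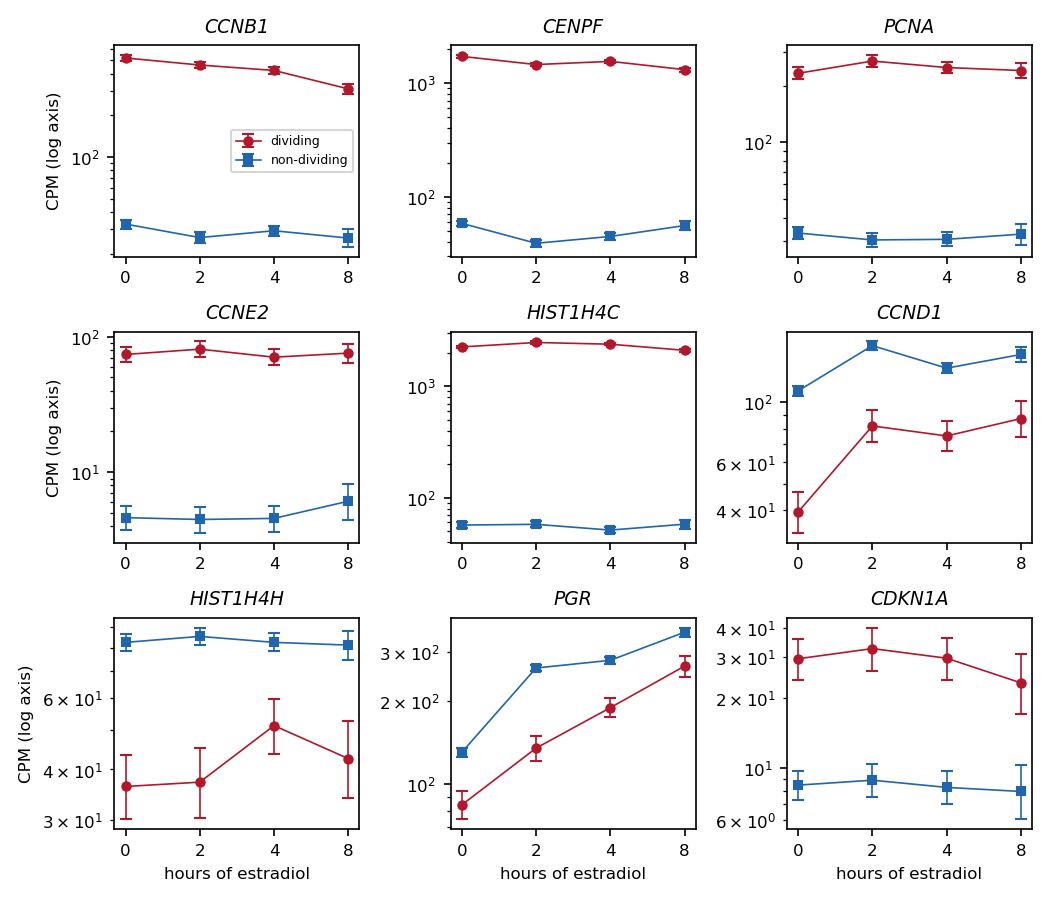
CPM (log axes, a scale of its own in each panel) of 9 genes in pools of dividing (red circles) and non-dividing (blue squares) T-47D cells over the 4 time points (hours of E2), with exact 95% Poisson intervals. CCNB1 in dividing cells goes from 519 to 310 CPM, CCND1 and HIST1H4H lie lower in dividing cells at every time, and PGR is higher after E2 in both classes.

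The response to E2 was measured within each class against its own vehicle pool, a contrast that the rule did not use. The 10 CPM minimum was set on all cells, most of them given E2, so a target could pass it through E2 alone. TFF1 and MYB were under it in both vehicle pools, and 9 of the 40 listed targets did not pass. The counts and medians here are of members that passed. Of the 31 estrogen targets past the minimum, 20, 24 and 27 were at least 1.5-fold higher at 2, 4 and 8 h in dividing cells, and 22, 22 and 26 in non-dividing cells. None was lower by as much in either class, where the backgrounds were 1.86%, 1.74% and 3.92% in dividing cells and 0.39%, 0.31% and 0.848% in non-dividing cells. The backgrounds over all genes, higher, were 1.86%, 2.11% and 3.38% in dividing cells (138, 157 and 251 genes) and 1.28%, 1.37% and 2.13% in non-dividing cells (95, 102 and 158). The median log2 change of the list was 0.79, 0.88 and 1.03 in dividing cells and 1.21, 1.03 and 1.27 in non-dividing cells. ESR1, the receptor itself, was at 25.6, 23.1, 25.1 and 33.9 CPM in dividing cells at 0, 2, 4 and 8 h, and at 25.03, 28.1, 33.3 and 38.1 CPM in non-dividing cells.

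Dividing pools are smaller, and small pools pass a fold more often through counting error. With the non-dividing pools thinned to the UMI totals of the dividing ones, 210, 213 and 308 genes were higher and 127, 145 and 248 lower in them, against 138, 157 and 251 higher and 138, 129 and 291 lower in dividing cells. The list's median in these thinned pools was 1.07, 1.04 and 1.23. Within dividing cells it was 1.08, 1.03 and 1.33 for those with 5 to 19 UMIs of the rule and 0.60, 0.77 and 0.84 for those with 20 or more. The lower medians were those of the cells with 20 or more, which numbered 78, 64, 70 and 34 at 0, 2, 4 and 8 h. This split of the E2 response was chosen after seeing the data, and the difference was not tested.

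Single targets departed from one another. PGR was at 84.2, 135, 189 and 267 CPM in dividing cells at 0, 2, 4 and 8 h, and at 130.5, 263, 281 and 355 CPM in non-dividing cells. It was lower in dividing cells at every time, and the change over vehicle was 0.68, 1.16 and 1.66 at 2, 4 and 8 h in dividing and 1.01, 1.10 and 1.44 in non-dividing cells on the log2 scale. GREB1, a coactivator of the receptor, had changes of 1.40, 1.61 and 1.87 and 1.58, 1.86 and 2.25. CXCL12, a chemokine, had changes of 0.80, 2.05 and 2.62 and 1.92, 2.59 and 3.01.

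TFF1, trefoil factor 1, was at 4.27, 7.81, 5.95 and 15.7 CPM in dividing cells at 0, 2, 4 and 8 h, and at 4.96, 17.97, 25.1 and 38.3 CPM in non-dividing cells. The classes did not differ beyond counting error under vehicle and were apart after E2. The ratio over vehicle at 4 h was 1.39 (95% interval 0.662 to 3.004) in dividing and 5.05 (95% interval 4.09 to 6.30) in non-dividing cells. The dividing pools held 14, 21, 19 and 31 TFF1 UMIs. CCND1 went the other way, with a ratio over vehicle at 8 h of 2.21 (95% interval 1.75 to 2.80) in dividing and 1.36 (95% interval 1.27 to 1.47) in non-dividing cells. Its intervals lay apart at 2, 4 and 8 h, and the gap between the classes was -1.46 on the log2 scale at 0 h and -0.78 at 8 h.

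OLFM1, a secreted glycoprotein, was at 40.9, 64.4, 95.5 and 129.7 CPM in dividing cells at 0, 2, 4 and 8 h, and at 8.08, 32.6, 46.2 and 75.7 CPM in non-dividing cells. It was higher in dividing cells at every time, and the ratio over vehicle at 8 h was 3.17 (95% interval 2.56 to 3.94) in dividing and 9.37 (95% interval 7.89 to 11.2) in non-dividing cells. MYBL1, a MYB family factor, was at 56.7, 103, 130.3 and 128 CPM in dividing cells at the 4 time points, against 12.1, 36.8, 44.3 and 52.1 CPM in non-dividing cells, with log2 folds between the classes of 2.14, 1.47, 1.54 and 1.28. MYB was at 1.22, 17.5, 7.20 and 21.3 CPM in dividing cells at the 4 time points, against 4.82, 23.03, 14.8 and 16.8 CPM in non-dividing cells, and the dividing vehicle pool held 4 UMIs of it. MYC was at 1.84 to 8.47 CPM in all 8 pools. Its log2 changes over vehicle at 2 and 8 h were 0.78 and 1.00 in dividing and 1.74 and 1.56 in non-dividing cells. At these levels the dividing pools held few MYC UMIs, and the difference between the classes was not tested.

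**Figure D5:**
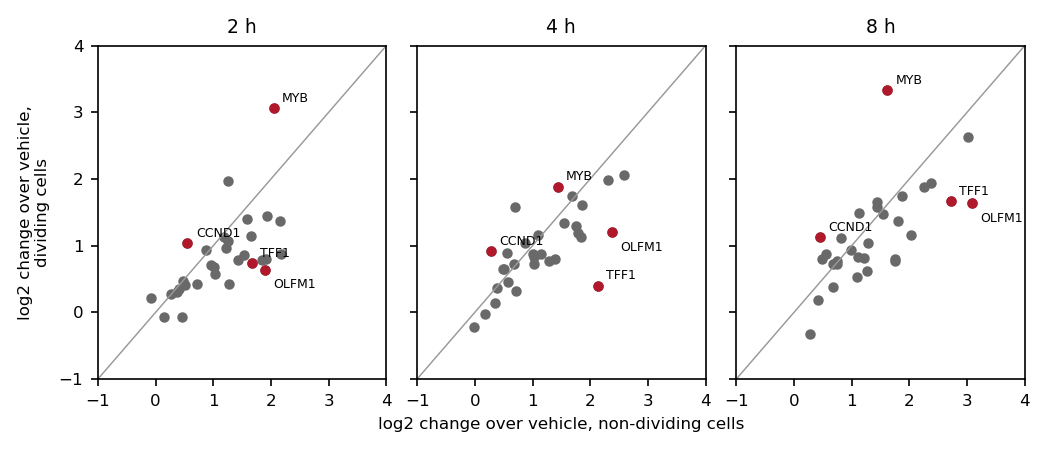
Log2 change over vehicle of the 31 estrogen targets in non-dividing (x) and dividing (y) T-47D cells after 2, 4 and 8 h of E2, with the line of equal change. At 8 h OLFM1 and TFF1 lie below the line, at 3.08 and 1.64 and at 2.72 and 1.66, and CCND1 and MYB above it, at 0.44 and 1.13 and at 1.62 and 3.33.

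SPINK13 and FMN1 were among the genes of 50 CPM or more whose fold between the classes varied most over time. FMN1, a formin, was at 17.7, 31.3, 72.98 and 70.9 CPM in dividing cells at 0, 2, 4 and 8 h, and at 15.8, 59.3, 81.5 and 85.9 CPM in non-dividing cells. SPINK13, a protease inhibitor, had log2 folds of -0.44, -1.23, -0.81 and -0.06.

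Under the same rule 34.0%, 35.1%, 35.2% and 32.2% of Ishikawa cells were dividing. Over 6388 genes past the minimum in both lines, 536 (8.39%) were higher at all 4 times in T-47D cells and 269 (4.21%) in Ishikawa cells. The 236 shared genes were 44.0% of the former and 87.7% of the latter. Of 65 (1.02%) lower in T-47D and 32 (0.501%) lower in Ishikawa cells, 11 were shared, or 16.9% and 34.4%. The median log2 fold of the mitotic list was 2.90 to 3.13 in Ishikawa cells and that of the replication list 0.99 to 1.10. These are of 32 and 46 members past the minimum in Ishikawa cells. The T-47D medians are of 22 and 35 members, so the sets differ. CCND1 had log2 folds of -0.43 to -0.31 in Ishikawa cells, and ANXA1 of 0.03 to 0.14. The lines were separate libraries with different depth limits, and no difference between them was tested.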

How the data were processed

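Per the labels and the submitters' processing notes, the authors ran 10x 3′ libraries through Cell Ranger 3.1.0 (hg38) and deposited counts, UMIs per gene and barcode, with a table of MULTI-seq time-point calls. The annotation release is not given in the sources used here. All 4626 T-47D barcodes called to 1 time point were used. Barcodes with more than 1 tag or no call were left out, pairs of cells from 1 culture carry 1 tag and were not removed, and no doublet caller was run. The dividing class, the gene lists and the named genes were chosen with earlier results of these data known.

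UMIs were summed per class and time point and scaled to CPM (Python 3.11.15, numpy 2.4.6). Log2 folds are of CPM + 1, so folds of low genes are understated. A gene needed 10 CPM in the pool of all cells and was called at 1.5-fold. Intervals (95%) are exact Poisson for CPM, exact conditional binomial for ratios and Clopper-Pearson for shares (scipy 1.17.1). They cover counting error only, and depth per pool is given with the results. No test was run, as the classes were chosen on mRNA of the cells compared and each time of E2 was 1 culture. Thinning drew 14495 UMIs from each cell, the 10th percentile. The scripts were tested on simulated data. Alternatives used edgeR 4.0.16 (TMM) and DESeq2 1.42.0 (median-of-ratios) scaling factors only. Ishikawa cells were kept as the study's methods state (UMIs between 8500 and 35000, at least 2700 and at most 6000 genes, mitochondrial share under 7%). Genes named in the text were a fixed set of cell cycle and estrogen genes, the 15 with the highest smallest fold and the 15 with the lowest largest fold over the 4 times, the extremes of each list, and the 3 with the widest range of folds at 50 CPM or more. Other list members named were chosen after their values were seen.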

Additional observations from a re-analysis of the deposited data

Results flagged for a closer look

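HIST1H4H, a histone H4 gene, was lower in dividing than in non-dividing T-47D cells at every time point and higher in Ishikawa cells at every time point. Its log2 folds at 0, 2, 4 and 8 h were -1.16, -1.18, -0.67 and -0.92 in T-47D cells and 1.49, 1.81, 2.02 and 2.47 in Ishikawa cells. It was the only gene past 1.5-fold in opposite directions at all 4 times among the 6388 genes past the minimum in both lines. How far the lines differ was not tested, and near-identical histone genes may have shared reads.

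Barcodes left out of the main comparisons also held cells that met the rule for dividing. Of the T-47D barcodes with more than 1 tag, 13.5% did (195 of 1442). Of those with no call and above 40000 UMIs or 6000 genes, 39.0% did (382 of 979), with a median of 44707 UMIs. Of those with no call and within the ranges of the called cells, 8.70% did (43 of 494), close to the 9.23% of called cells. Of the remaining barcodes with no call, 8.83% did (940 of 10647), at a median of 6211 UMIs and 27.9% mitochondrial UMIs. With the barcodes of more than 1 tag added, the share over all times was 10.25%. With every barcode above the lower limits and no upper limit, it was 13.8% (1034 of 7505). How these barcodes would change the shares by time point was not tested.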

How the results depend on the processing

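The classes were paired by culture at each time point. No paired test was run, since the classes were chosen on mRNA of the same cells and each time of E2 was 1 culture. Depth limits the dividing pools most, the smallest being that of 8 h with 73 cells. Single genes were recomputed if they were in the fixed set (without the rule's own), the extremes of fold or list, or the widest ranges. None of these with a median log2 fold past 1.5-fold changed the sign of that median under another scaling, pseudocount, depth, UMI limit or threshold. FMN1, past 1.5-fold lower at 2 h, went from a median of -0.21 to 0.08 without scaling. Other list members named, such as E2F1, RB1, TYMS and HIST1H4H, were not recomputed singly. Of the counts and shares recomputed under another setting, 118 stayed within 1.5 times the count or within the interval of the share, and 54 did not. Of values of single genes and lists, 775 stayed so and 179 did not.

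Without scaling (mean UMIs per cell), 1717, 1785, 1855 and 1698 genes were higher and 138, 181, 108 and 191 lower in dividing cells at 0, 2, 4 and 8 h, and 1081 higher and 26 lower at all 4 times. This scale moved the median gene by 0.26 to 0.30. With no minimum level, 2263, 2265, 2103 and 2679 were higher and 1360, 1756, 1403 and 1971 lower, and 1100 and 211 at all 4 times, since 20507 genes had a UMI. With a pseudocount of 5, 260, 345, 264 and 348 were lower, and 81 at all 4 times. TMM factors gave 634 lower at 0 h, and thinned cells with classes called again 659 lower at 4 h. The cause of the last 2 was not tested. Requiring the ratio's interval to lie off 1 gave 861 to 926 higher and 402 to 535 lower. Of the 578 genes higher at all 4 times 508 to 578 stayed so under each alternative, and of the 123 lower 26 to 123.

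The dividing share depended on the definition. A limit of 10 UMIs gave 6.49%, 6.94% and 9.40% at 0, 4 and 8 h and 7.18% in all. A limit of 3 UMIs gave 12.1% and 17.2% at 4 and 8 h and 11.5% in all. Thinned cells gave 7.39% at 4 h and 8.19% in all, and an upper limit of 31641 UMIs 7.44% and 7.93%. With barcodes of more than 1 tag the share was 10.25% in all, and with every barcode above the lower limits and no upper limit, chosen after seeing the data, 13.8% (1034 of 7505). The share was highest at 8 h under each of the 4 alternatives by time point.

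For E2, thinning the cells gave 306, 314 and 455 genes higher and 318, 314 and 508 lower in dividing cells at 2, 4 and 8 h, and 47 and 38 lower in non-dividing cells at 2 and 4 h. Non-dividing pools of the dividing pools' size, chosen after seeing the data, gave 210, 213 and 308 higher and 127, 145 and 248 lower. Requiring the ratio's interval to lie off 1, also chosen after seeing the data, gave 112, 141 and 207 higher and 102, 104 and 201 lower in dividing cells.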

Other observations

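HIST1H1D, the linker histone gene with some of the largest folds in T-47D cells, had no UMI in the Ishikawa cells within the limits. HIST1H4C was higher in dividing cells of both lines, with log2 folds of 2.68 to 4.38 in Ishikawa cells at a level of 9.47 CPM over all cells. HIST1H2AC, lower in dividing T-47D cells, had log2 folds of 0.54 to 1.27 in Ishikawa cells. CDKN1A, at 1.44 to 1.77 in T-47D cells, had -0.13 to 0.66 in Ishikawa cells, and PCNA 0.54 to 0.75 against 2.77 to 3.102. These differences between the lines were not tested.

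In the dividing T-47D cells with 20 or more of the rule's UMIs, PGR was at 73.3, 110.1, 148 and 204 CPM at 0, 2, 4 and 8 h, and in those with 5 to 19 at 101, 180.4, 250 and 333 CPM.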
